A study of Mus musculus with 6 samples.

Results

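The genes described here carry cargo into, along and out of the primary cilium. They were chosen by symbol and not by any measured value, as the loci whose gene symbol begins with *Ift* or *Bbs* followed by a number, together with a named set of kinesins, dynein-2 subunits, ARL GTPases, WD-repeat subunits and ciliary base or membrane proteins. The rule took 37 of 24402 loci, and each of the 37 loci carries a single gene symbol. Whole lungs of C57BL/6 embryos were compared at 12.5 *dpc* between wild-type embryos and Yap-flox/flox; Shh-Cre/+ littermates (*Yap* mutants), with 3 libraries for each genotype. In the mutants, *Yap* is deleted in lung epithelium by Cre recombinase that is expressed under *Shh* control, the mesenchyme keeps *Yap*, and the Cre allele itself replaces a working copy of *Shh*. The other group is labelled as wild type, with no allele named.

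The deposited table gives 1 value per genotype, read here as FPKM (a measure of sequenced fragments scaled by the length of the transcript and the size of the library), so the spread between the 3 libraries, their depths and the precision of a value are unknown. No test across libraries was possible, and every comparison below is a description of sizes. The log2 ratio is that of *Yap* mutant over wild type after adding 0.1 FPKM to each value. Ratios were counted over the 12716 loci whose mean reached 1 FPKM, and 36 of the 37 ciliary transport genes were among them. *Yap1* itself had 76.1 FPKM in wild-type and 65.6 FPKM in *Yap* mutant lungs, a log2 ratio of -0.21, in RNA that includes the mesenchyme. *Epcam* and *Cdh1* marked the epithelium, *Nkx2-1* the lung lineage and *Col1a1* the mesenchyme, with 74.9, 20.3, 61.9 and 288 FPKM in wild-type lungs and 55.6, 17.7, 35.9 and 311 FPKM in *Yap* mutant lungs. Between the genotypes, the median log2 ratio was -0.61 over 16 epithelial genes, 0.12 over 15 mesenchymal genes and 3.13 over 8 cardiac muscle genes. Among the 8, *Nppa* and *Myh7* reached a mean of 1 FPKM only through their mutant values, with 0.581 and 0.316 FPKM in wild-type lungs. Of 7 liver genes 4 had a mean of at least 1 FPKM, 1 of these only through its mutant value, and their log2 ratios ran from -0.15 to 4.52. The Y-linked gene *Ddx3y* had 0.0163 FPKM in wild-type and 10.2 FPKM in *Yap* mutant samples, so the sex of the embryos was not balanced. None (0) of the 37 genes lies on X or Y. The part that heart, liver, cell composition or sex played in any value below was not tested. Fewer epithelial cells cannot be told apart from changed RNA levels per cell.

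Most cells of an embryonic organ, epithelial and mesenchymal alike, bear a primary cilium, a non-motile projection built around microtubules. Parts and receptors are moved by intraflagellar transport (IFT). Kinesin-2 pulls IFT-B trains toward the tip, and dynein-2 with IFT-A brings material back to the base. The BBSome, a coat-like complex named after Bardet-Biedl syndrome, helps membrane proteins leave the cilium. In vertebrates the Hedgehog receptors and GLI factors are processed through this organelle, which ties it to the signals that pass from lung epithelium to mesenchyme. Transcription of many ciliary genes is driven by RFX factors, which bind the X-box, a pair of sites of which GTTGCC is a common core.

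The sequences that follow show GTTGCC, the most frequent in these promoters of the 3 letter patterns searched. RefSeq promoter windows on GRCm38.p6, from 250 bases before to 50 bases after a gene start, were found for 33 of the 37 genes (34 windows). GTTGCC was present on either strand in the windows of 14 of the 33 genes (42.4%), beside 14.7% of 9298 genes with a window and a mean of at least 1 FPKM and 14.1% of 27025 genes in the whole table. A fuller X-box, GTTNCC followed after 0 to 3 bases by GGNAAC, was present in 2 of the 33 (6.06%), among them *Bbs7*, beside 1.05% of the 9298 genes, and such a pair can contain GTTGCC. The TEAD letters GGAATG, tried because YAP acts through TEAD factors, were present on either strand in 3 of the 33 (9.09%), *Kif17*, *Kif3b* and *Tulp3*, beside 14.5% of the 9298 genes. A match of letters is a description and not a site in use. The 5 stretches of 30 bases below are among those with GTTGCC within 130 bases before the start that the promoter table uses, shown 5′ to 3′ on the strand that reads GTTGCC, with that core, or for *Bbs7* the fuller X-box, in capitals. They were chosen after the matches were seen, and other genes with a match are not shown. The start used lies inside the RefSeq gene, by 1668 bases from its outermost start for *Kif3a*, 103 for *Bbs7* and 3 for *Ift140*, and is the outermost start for *Ift27* and *Kif17*.
Bbs7, chr3:36613493-36613522, minus strand: gaatgcgccccgGTTGCCTTGGAAACcggc
Ift27, chr15:78174073-78174102, minus strand: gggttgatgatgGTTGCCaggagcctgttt
Ift140, chr17:25015965-25015994, minus strand: caagggcgcgagGTTGCCgtcacaacacgc
Kif3a, chr11:53567259-53567288, plus strand: caccccgcaggcGTTGCCccagtctagcgt
Kif17, chr4:138262166-138262195, plus strand: gacgtcacggagGTTGCCcagcaacggcga

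For the genes with the lowest and highest ratios, the promoter is shown from 150 bases before to 30 bases after the start that the promoter table uses (RefSeq, GRCm38.p6), in lower case throughout because none of the searched letters falls inside these 180 bases. *Arl3* had the lowest ratio, and *Dync2h1* and *Wdr19* had the highest ratios of the set. For *Dync2h1* that start lies 1248 bases inside the RefSeq gene from its outermost start, and for *Arl3* and *Wdr19* it is the outermost start.
Arl3, chr19:46573153-46573332, minus strand: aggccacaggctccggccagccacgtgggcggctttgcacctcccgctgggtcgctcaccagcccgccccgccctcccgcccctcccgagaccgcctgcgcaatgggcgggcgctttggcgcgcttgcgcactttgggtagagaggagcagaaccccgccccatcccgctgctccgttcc
Dync2h1, chr9:7177029-7177208, minus strand: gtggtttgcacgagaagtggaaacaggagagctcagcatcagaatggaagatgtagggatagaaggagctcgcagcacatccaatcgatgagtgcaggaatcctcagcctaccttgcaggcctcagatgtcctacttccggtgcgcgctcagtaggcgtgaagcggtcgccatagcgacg
Wdr19, chr5:65199546-65199725, plus strand: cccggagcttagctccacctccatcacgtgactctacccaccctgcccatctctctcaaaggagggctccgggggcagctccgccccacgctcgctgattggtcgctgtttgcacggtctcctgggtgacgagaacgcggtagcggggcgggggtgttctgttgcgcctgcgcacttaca

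Transcripts of the ciliary transport genes had pooled values close to those of wild type in *Yap* mutant lungs. Of the 36 genes, 28 (77.8%) had pooled values within 1.1-fold of each other, beside 59.1% of all 12716 loci. Within 1.2-fold lay 32 of the 36, beside 79.1% of all loci and 84.7% of loci in the range of levels of these genes. The share within 1.2-fold was thus near that of loci at such levels. None (0) of the 36 was lower by at least 1.3-fold, where 5.73% of all loci were. Higher by at least 1.3-fold was 1 of the 36, where 7.93% of all loci were. At 1.5-fold the counts were 0 lower and 0 higher, beside 3.3% and 4.44% of all loci. These genes had means between 4.01 and 61.2 FPKM, and of the 8716 loci in that range 9.16% were past 1.3-fold in either direction and 65.0% were within 1.1-fold. The median log2 ratio of the 36 genes was 0.05 (24 higher and 12 lower), beside -0.01 over all loci, and it became -0.07 when ratios were taken relative to the mesenchymal genes, so the set has no direction that holds under each scaling. Their summed level was 485.9 FPKM in wild-type and 490.7 FPKM in *Yap* mutant lungs.

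**Figure D1:**
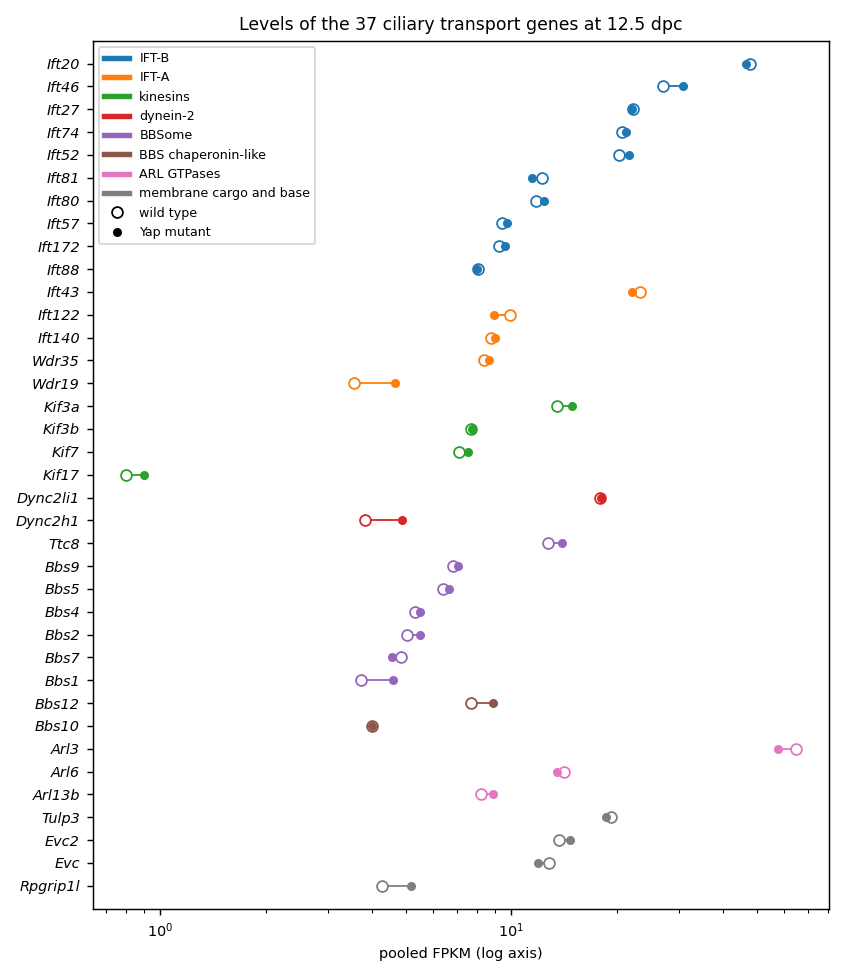
Pooled FPKM (log axis) of each of the 37 genes in wild-type lungs (open circles) and *Yap* mutant lungs (filled circles), coloured by role, with no error bars because the table gives 1 value per genotype. Levels run from 0.798 FPKM (*Kif17*) to 64.7 FPKM (*Arl3*) in wild-type lungs, and the circles of each pair lie close together.

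The IFT-B complex forms the trains that carry tubulin and other cargo outward, and the symbol rule took 10 of its genes. Among these, *Ift20*, whose product also works at the Golgi, was the most abundant, with 47.7 FPKM in wild-type and 46.7 FPKM in *Yap* mutant lungs. *Ift46* had 27.0 and 30.9 FPKM, the highest ratio of the 10 at 0.19. *Ift27*, which encodes a small GTPase of the train, had 22.2 and 22.0 FPKM. These 3 led the 10 genes in both genotypes, and only *Ift46* among them differed by more than 1.1-fold. *Ift74* had 20.7 and 21.2 FPKM, and its tubulin-binding partner *Ift81* had 12.2 and 11.4 FPKM. *Ift52* had 20.3 and 21.6 FPKM. *Ift88*, the gene affected in the Oak Ridge polycystic kidney mouse, had 8.02 and 7.99 FPKM. It was the least abundant of the 10 in wild-type lungs and its pooled values were nearly equal. *Ift80* had 11.8 and 12.4 FPKM. *Ift57* had 9.39 and 9.73 FPKM. *Ift172* had 9.23 and 9.60 FPKM, and all 3 were slightly higher in the mutant. Over the 10 genes the log2 ratio ran from -0.10 (*Ift81*) to 0.19 (*Ift46*) with a median of 0.04.

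The IFT-A complex, which serves return transport and the entry of membrane receptors, gave 5 genes, which held the highest ratio of the 36 and the lowest ratio of the 15 IFT genes that the rule took. Among IFT genes outside the rule, *Ttc30a1* and *Ttc21b* had lower ratios, -0.22 and -0.19, and are named after their values were seen. *Wdr19* (chromosome 5, 65199696 to 65260415) had 3.56 FPKM in wild-type and 4.67 FPKM in *Yap* mutant lungs, a log2 ratio of 0.38. It was the only gene past 1.3-fold, it sat at the edge of that bound, and with 1 FPKM added in place of 0.1 it no longer passed. *Ift122* (chromosome 6, 115853528 to 115926699) had 9.93 and 8.93 FPKM, a log2 ratio of -0.15. Subunits of this complex therefore lay on both sides of 0. *Ift140* had 8.75 and 9.01 FPKM. *Wdr35* had 8.33 and 8.63 FPKM. *Ift43* had 23.2 and 22.0 FPKM, the highest level of the 5. The median of the 5 genes was 0.04.

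Among the motors, the heavy chain and the light intermediate chain of dynein-2 were measured at different levels. *Dync2h1*, the heavy chain that drives return transport, had 3.82 FPKM in wild-type and 4.87 FPKM in *Yap* mutant lungs, a log2 ratio of 0.34. *Dync2li1*, its light intermediate chain, had 17.9 and 18.01 FPKM. The kinesin-2 subunits *Kif3a* and *Kif3b* form the outward motor together. *Kif3a* had 13.5 and 14.9 FPKM and *Kif3b* had 7.68 and 7.73 FPKM, with log2 ratios of 0.14 and 0.01. *Kif7*, which organizes the ciliary tip and regulates GLI factors, had 7.09 and 7.53 FPKM. *Kif17*, a further motor that is best known from neurons and photoreceptors, was the 1 gene under the level bound, at 0.798 and 0.9 FPKM. All 6 motor genes, *Kif17* included, had the higher value in the mutant, by log2 ratios of 0.01 to 0.34. So did 48.2% of all 12716 loci and 24 of the 36 ciliary transport genes. Relative to the mesenchymal genes *Kif3b*, *Dync2li1* and *Kif7* turned lower.

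**Figure D2:**
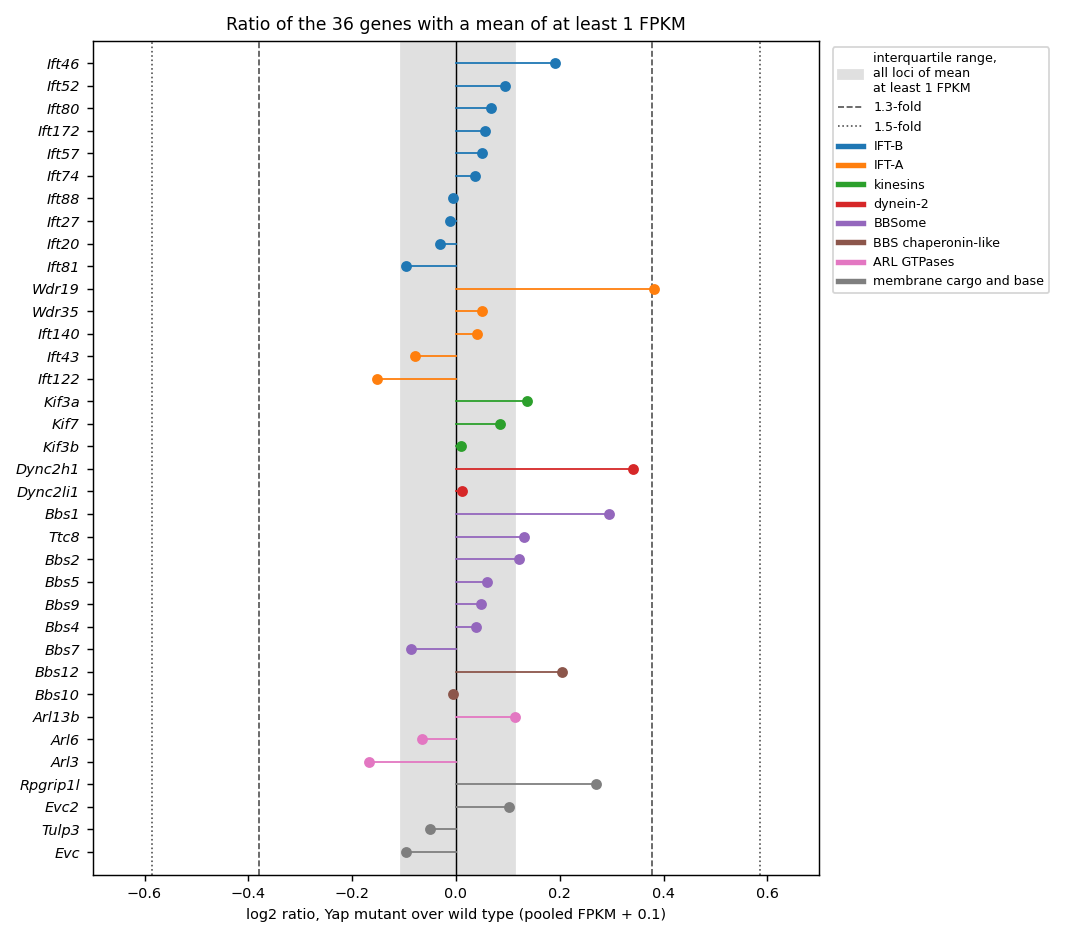
Log2 ratio of *Yap* mutant over wild type (0.1 FPKM added) for the 36 genes whose mean reached 1 FPKM, coloured by role, with dashed lines at 1.3-fold, dotted lines at 1.5-fold and the interquartile range of all 12716 loci in grey. *Wdr19* at 0.38 touches the dashed line, and the lowest value is -0.17 (*Arl3*).

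The BBSome was represented by 7 genes, most of them at lower levels than the IFT-B genes. *Bbs1* (chromosome 19, 4886882 to 4906634) had 3.74 FPKM in wild-type and 4.61 FPKM in *Yap* mutant lungs, a log2 ratio of 0.30. *Ttc8* was the most abundant subunit, at 12.7 and 13.9 FPKM, and *Bbs2* had 5.04 and 5.498 FPKM. *Bbs7* had 4.85 and 4.57 FPKM and was the 1 subunit with the lower value in the mutant. Only *Bbs1* among the 7 differed by more than 1.1-fold. *Bbs9* had 6.82 and 7.06 FPKM. *Bbs5* had 6.39 and 6.66 FPKM. *Bbs4* had 5.33 and 5.48 FPKM. The median log2 ratio over the 7 was 0.06, and relative to the mesenchymal genes *Bbs2*, *Bbs4*, *Bbs5* and *Bbs9* turned lower too. Of the chaperonin-like proteins that help to assemble the BBSome, *Bbs12* had 7.69 and 8.88 FPKM, a log2 ratio of 0.20, and *Bbs10* had 4.01 and 3.999 FPKM.

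The ARL GTPases direct the delivery of proteins to the ciliary membrane. *Arl3*, which releases lipid-modified cargo inside the cilium, was the most abundant gene of the set in both genotypes, with 64.7 FPKM in wild-type and 57.6 FPKM in *Yap* mutant lungs. Its log2 ratio of -0.17 was the lowest of the 36. *Arl6*, which recruits the BBSome to membranes, had 14.1 and 13.5 FPKM. *Arl13b*, the GTPase widely used as a stain for cilia, had 8.17 and 8.84 FPKM, so the values of the 3 GTPases did not share a direction. Relative to the mesenchymal genes all 3 were lower, with log2 ratios of -0.29 (*Arl3*), -0.19 (*Arl6*) and -0.011 (*Arl13b*). *Tulp3*, an adaptor that brings receptors into the cilium with IFT-A, had 19.2 and 18.6 FPKM. *Rpgrip1l* (chromosome 8, 91217030 to 91313286), a scaffold of the transition zone at the base, had 4.28 and 5.18 FPKM, a log2 ratio of 0.27. *Evc* and *Evc2* encode partner proteins that act in Hedgehog signalling at the cilium base, and their loci lie 1556 bases apart on chromosome 5. *Evc* had 12.8 and 11.9 FPKM and *Evc2* had 13.7 and 14.7 FPKM, log2 ratios of -0.10 and 0.10. Relative to the mesenchymal genes these ratios became -0.22 and -0.023.

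The ratios spread most at the low end of the levels. The 4 genes with the highest ratios, *Wdr19*, *Dync2h1*, *Bbs1* and *Rpgrip1l*, were all among the 6 genes with the lowest means of the 36. Under a mean of 5.5 FPKM the median size of the log2 ratio was 0.20 over 8 genes. It was 0.07 over the 19 genes from 5.5 to 15 FPKM and 0.05 over the 9 genes at 15 FPKM or more. The bounds of 5.5 and 15 FPKM were set after the values were seen. A fragment weighs more in a low value, and the part this played was not tested. The order of the levels was nearly the same in both genotypes, and no gene moved by more than 4 of 37 places.

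**Figure D3:**
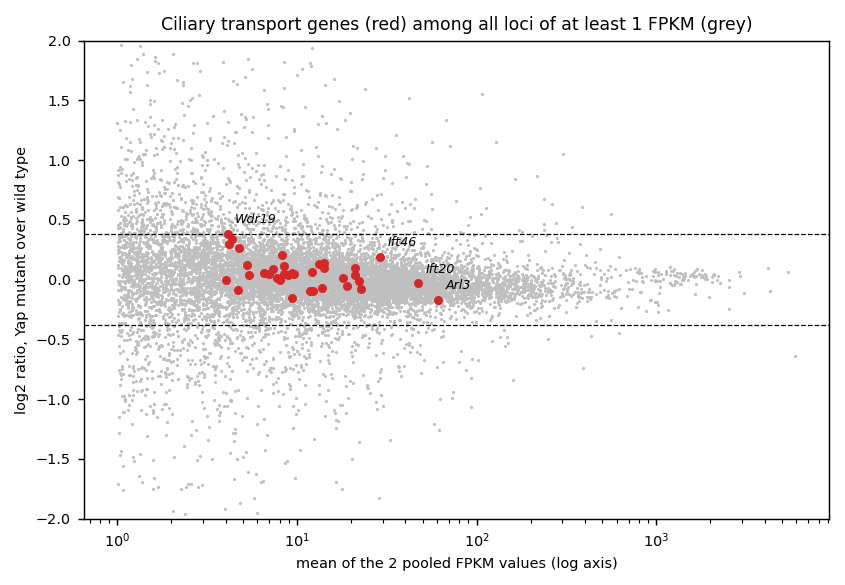
Log2 ratio of *Yap* mutant over wild type against the mean of the pooled FPKM values (log axis) for the 36 genes (red) and all 12716 loci of at least 1 FPKM (grey), with dashed lines at 1.3-fold. The red points lie between -0.17 and 0.38, and 139 grey loci lie beyond the axis limits of 2 in either direction.

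For 8 of the 37 genes the table's locus also spans another protein-coding gene of RefSeq, which has a value of its own there. They are *Arl6* (with *Epha6*), *Ift20* (*Tmem97*), *Ift74* (*Lrrc19*), *Ift140* (*Tmem204*), *Kif7* (*Ticrr*), *Arl13b* (*Stx19*), *Ift46* (*Arcn1*) and *Dync2h1* (*Dcun1d5*), and their own values are uncertain to the extent that fragments were shared out between neighbours. Neighbour and ciliary gene had ratios of the same sign for *Arl6*, *Ift20*, *Kif7* and *Arl13b*, and of opposite sign for *Ift74*, *Ift140*, *Ift46* and *Dync2h1*. They were furthest apart for *Tmem204* at -0.47 and *Ift140* at 0.04. Among the neighbours, *Epha6* (0.031 and 0.027 FPKM), *Stx19* (0.703 and 0.849 FPKM) and *Lrrc19* (0.478 and 0.424 FPKM) were under 1 FPKM in wild-type and *Yap* mutant lungs. The ratio of *Ticrr* was 0.004, so these signs carry little weight. The part that shared fragments played was not tested. Without these 8, the median over the other 28 was 0.05, 1 gene was past 1.3-fold and 0 were past 1.5-fold.

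Other genes of the primary cilium had ratios of the same size. Over the 62 of 66 loci whose mean reached 1 FPKM, in lists of further IFT, BBS and motor genes, the transition zone, ciliary membrane trafficking and the basal body, 33 were lower and 29 were higher in the mutant, with a median of -0.02. Past 1.3-fold were 1 lower and 0 higher. That gene was *Tub*, a relative of *Tulp3*, with 2.49 FPKM in wild-type and 1.16 FPKM in *Yap* mutant lungs, a log2 ratio of -1.04. The medians of the 4 lists ran from -0.05 (ciliary membrane trafficking, 11 of 13 lower) to 0.05 (transition zone, 12 of 19 higher). Of 7 RFX genes 6 had a mean of at least 1 FPKM, 5 of them within 1.2-fold. *Rfx6*, a factor of pancreas and gut endoderm, had 0.393 and 3.43 FPKM and reached that mean only through its mutant value. Genes of motile cilia were mostly at trace levels. Of 21 such genes 4 had a mean of at least 1 FPKM, and *Foxj1*, the main factor of multiciliated cells, had 0.275 and 0.268 FPKM. The log2 ratios of the 4 motile cilium genes at that mean ran from -0.62 to 0.38. Among these 4, *Tekt1* was the 1 gene past 1.5-fold, with 3.93 and 2.53 FPKM and a log2 ratio of -0.62. *Tekt1* fell short of 1.5-fold at -0.48 with 1 FPKM added and at -0.57 with the same total FPKM in both genotypes.

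Several of the genes that take cilia apart also act in mitosis. The 8 genes listed all had the lower value in the mutant, as did 6583 of all 12716 loci. The median log2 ratio of the 8 was -0.13. The largest difference was that of *Nedd9*, a scaffold that activates Aurora A kinase, with 29.97 FPKM in wild-type and 10.5 FPKM in *Yap* mutant lungs, a log2 ratio of -1.50. The others lay between -0.27 and -0.05. Over 20 S-phase genes the median was -0.19 and over 20 genes of G2 and M phase, which include *Aurka* and *Plk1* of the disassembly list, it was -0.15.

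Hedgehog signalling runs through the cilium, and *Shh* and several of its targets had lower pooled values in *Yap* mutant lungs, while other genes of the pathway differed little. The signal *Shh* had 15.6 FPKM in wild-type and 2.31 FPKM in *Yap* mutant lungs, a log2 ratio of -2.71, in embryos in which the Cre allele takes the place of a copy of *Shh*. Its targets and binding proteins *Ptch1* and *Hhip* had log2 ratios of -1.82 and -2.67, and the effector *Gli1*, itself a target, had 36.7 and 18.01 FPKM, a log2 ratio of -1.02. *Smo*, the transducer that enters the cilium, had 80.3 and 72.8 FPKM, a log2 ratio of -0.14. *Gli2* and *Gli3*, the factors processed there, had log2 ratios of -0.10 and 0.21. *Shh*, *Ptch1*, *Hhip* and *Gli1* were each lower by at least 1.5-fold, where 3.3% of all loci were, and the median over the 13 genes listed was -0.14. With 1 value per genotype, no difference between the Hedgehog genes and the ciliary transport genes was tested.

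**Figure D4:**
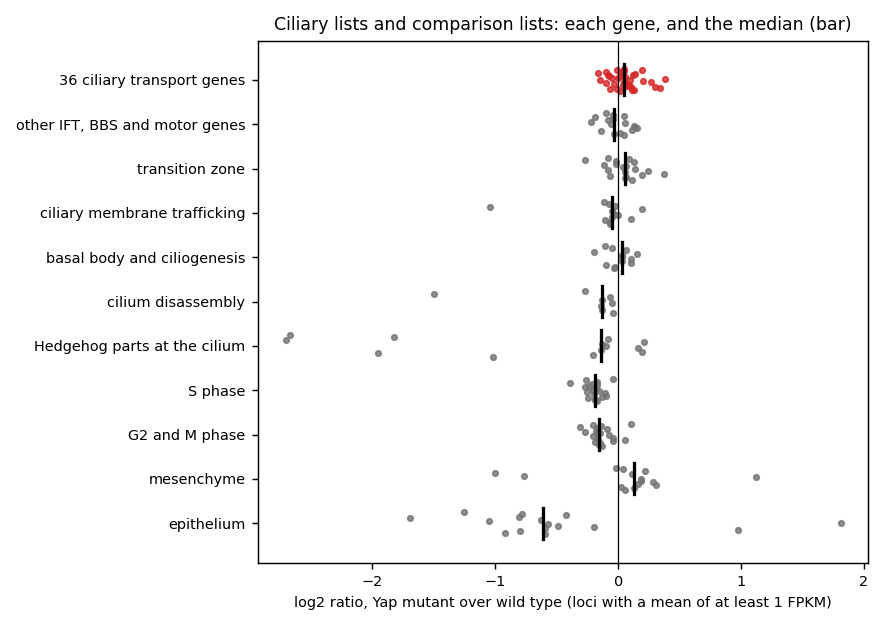
Log2 ratio of *Yap* mutant over wild type for each locus whose mean reached 1 FPKM (points, spread vertically for legibility) and the median of each list (bar), for the 36 ciliary transport genes (red) and 10 comparison lists (grey). The red points lie between -0.17 and 0.38, while the Hedgehog list reaches -2.71 and the epithelium list has its median at -0.61.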

How the data were processed

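RNA from whole lungs was sequenced as stranded paired-end libraries, 3 per genotype. According to the submitters' processing notes, the authors used TopHat and Cuffdiff on mm10, with versions not given in the sources used here. The deposited table holds 1 pooled value per genotype and locus, taken as FPKM from the layout of Cuffdiff output and not stated in the table, and its fragment counts and depths per library are not given. The table also holds the authors' own fold changes and p-values, and another deposited table lists the loci they selected. None of these was used.

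Log2 ratios of *Yap* mutant over wild type were computed after adding 0.1 FPKM, over loci whose mean reached 1 FPKM, and counted past 1.3-fold and 1.5-fold. No p-value was computed because there is 1 value per genotype. The counting steps were tested on simulated data. Locus starts count from 0 in the table, and 1 was added. RefSeq genes and promoters on GRCm38.p6, the same build as mm10, gave overlapping genes and promoter letters, and 7 listed symbols were matched by a RefSeq synonym. Alternatives were other pseudocounts, filters and scalings, and leaving out loci with several symbols. Every ciliary transport gene is named. Of the other ciliary lists, genes past 1.5-fold whose mean reached 1 FPKM are named, together with *Smo*, *Gli1*, *Gli2*, *Gli3*, *Ptch1* and *Foxj1*, and *Epcam*, *Cdh1*, *Col1a1* and *Nkx2-1* serve as a check of the tissue. Some items that these rules would name are not reported here. The genes and lists were chosen with earlier results of these data known. Python 3.11.15, numpy 2.4.6, pandas 2.3.3 and matplotlib 3.10.9 were used.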

Additional observations from a re-analysis of the deposited data

How the results depend on the processing

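No paired analysis was possible because the table gives 1 pooled value per genotype with no replicate numbers, and for the same reason no library could be left out. The 1 gene past 1.3-fold higher became 0 with 1 FPKM added, 0 with a mean of at least 5 FPKM, 2 with the same total FPKM in both genotypes and 0 relative to the mesenchymal genes. A mean of at least 5 FPKM gave medians of 0.012 for dynein-2 and 0.20 for the chaperonin-like genes, each then resting on 1 gene, and without a filter the motile cilium median was 0.13. Ratios relative to the mesenchymal genes shifted every value by -0.12, and of the 36 ciliary transport genes 28 were then lower and 8 higher, with a median of -0.075. The medians by role became -0.081 (IFT-B), -0.083 (IFT-A), -0.038 (kinesins), 0.052 (dynein-2), -0.065 (BBSome), -0.024 (chaperonin-like), -0.19 (ARL GTPases) and -0.10 (membrane cargo and base). Those of the other lists became -0.15 (further IFT, BBS and motor genes), -0.071 (transition zone), -0.18 (membrane trafficking), -0.10 (basal body), -0.26 (disassembly), -0.12 (motile cilium), -0.040 (RFX) and -0.27 (Hedgehog). The alternative that leaves out the 8 genes with shared loci was chosen after seeing the data. The counts past 1.3-fold lower and past 1.5-fold were 0 under every alternative run.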
